A study of Mus musculus with 8 samples.

Results

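The 10 genes described here make microRNAs and carry them to their target transcripts: Drosha and Dgcr8, Xpo5, Dicer1, Tarbp2 and Prkra, and the Argonaute genes Ago1, Ago2, Ago3 and Ago4. They were taken by name from the 21423 gene symbols found among the 27052 RefSeq records of an RNA-seq count table of mouse induced pluripotent stem cells (iPSCs). No rule on their values was used, but earlier results of these data were known when they were chosen. Ago1 to Ago4 are the genes that older annotations call Eif2c1 to Eif2c4. Where a symbol had more than 1 record, the record with the highest mean count was taken, and this applied to Drosha, which has 2 records. All 10 genes passed the filter for low counts (5 or more reads in 4 or more libraries), as did 16235 records in all.

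The libraries came from 8 individual iPSC clones, 4 of them TKO (47, 48, 35 and 37) and 4 Ctrl (41, 43, 33 and 34), each clone being 1 sample. TKO cells were Miwi-/- Mili-/- Miwi2-/-, with GFP in place of most of the Miwi coding sequence, a deletion of early exons of Mili, and in-frame stop codons in Miwi2. Ctrl cells were triple heterozygous in the study's methods and wild type or heterozygous in its legends. All clones shared a mixed background, an Oct4-GFP reporter and retroviral OCT4, SOX2, KLF4 and c-MYC, with which embryonic fibroblasts (MEFs) had been reprogrammed, and the picked colonies were moved onto inactivated MEF feeders and grown with LIF at low passage. Each genotype has 2 clones numbered in the forties and 2 in the thirties. What the numbering reflects is not labelled, and the sets are called clone series here. Nor is the embryo behind each clone given, and a p-value therefore sets a difference against the spread between these clones.

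Library totals ran from 24593995 to 52457455 counts in TKO and from 8983203 to 24688324 in Ctrl clones. Depth and genotype moved together in the thirties, with 45005422 and 52457455 in TKO 35 and 37 against 8983203 and 17216692 in Ctrl 33 and 34. In the forties the totals were closer, with 24593995 and 28830217 in TKO 47 and 48 against 23992893 and 24688324 in Ctrl 41 and 43. The difference of the TKO effect between these sets, given below, thus goes with depth too. Counts were divided by the median-ratio size factor of each library, and the resulting normalized counts are used below unless a value is given per kilobase. Transcripts of the targeted gene Mili (Piwil2) averaged 7669.8 ± 3009 normalized counts in TKO and 895 ± 110.3 in Ctrl clones (SD, n = 4 each). Miwi2 (Piwil4) averaged 2050.2 ± 914 in TKO and 594 ± 131 in Ctrl clones, and Miwi (Piwil1) 3.13 ± 0.966 in TKO and 14.9 ± 9.39 in Ctrl clones. Counts per record do not show whether a protein was made. The summed normalized count of 10 pluripotency markers was 154737 to 173591 in TKO and 125711 to 178081 in Ctrl clones, with Esrrb at 0 to 5 reads. With genotype alone, 7 of the 9 markers tested had a log2(TKO/Ctrl) above 0 and 2 below (median 0.10). Pou5f1, which encodes OCT4, was among those below, with 17075 ± 1535 in TKO and 26087 ± 2102 in Ctrl clones (log2(TKO/Ctrl) -0.61, adjusted p = 0.0380, edgeR). Dppa5a, the marker with most counts, averaged 82346 ± 6346 in TKO and 58871 ± 14470 in Ctrl clones (0.48, adjusted p = 0.232). The paper, with a 2.5-fold threshold, lists Oct3/4 among the reprogramming factors not affected, and found Oct4-GFP at comparable levels. The part of the retroviral OCT4 in the counts of Pou5f1 was not tested. The sum of 11 fibroblast markers, none of them at 0, was 40659 and 30792 in TKO 47 and 48 and 24527 and 22535 in TKO 35 and 37, against 24808 and 25159 in Ctrl 41 and 43 and 65996 and 40337 in Ctrl 33 and 34. Within each genotype no library repeated another, since every pair had a chi-square per degree of freedom of 9.92 to 137.

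MicroRNAs begin as hairpins within longer nuclear transcripts. The Microprocessor, made of the nuclease DROSHA and its RNA-binding partner DGCR8, cuts the hairpin out, Exportin-5 (XPO5) carries it to the cytoplasm, and DICER1, aided by TARBP2 or PRKRA, trims it to a short duplex. An Argonaute protein keeps 1 strand of the duplex and uses its seed, bases 2 to 8, to find transcripts that are then repressed. Mouse pluripotent cells depend on this pathway less for survival than for leaving self-renewal, as cells without Dgcr8 or Dicer1 grow slowly and differentiate poorly. The PIWI proteins that TKO cells lack are relatives of the Argonautes, but load piRNAs, which are made without Drosha or Dicer1.

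In mm9 the Argonaute genes Ago3, Ago1 and Ago4 stand next to each other on the minus strand of chromosome 4, with Ago3 from 126008948 to 126106800, Ago1 from 126112256 to 126145878 and Ago4 from 126166785 to 126210716. The gaps between them are 5.46 kb and 20.9 kb. Chromosome 15 holds Ago2 (72932055 to 73015377), Drosha (12754570 to 12865045) and Tarbp2 (102348623 to 102354107). Dgcr8 lies on chromosome 16 (18254041 to 18289342), Xpo5 on chromosome 17 (46339804 to 46379248), Dicer1 on chromosome 12 (105925952 to 105990162) and Prkra on chromosome 2 (76467955 to 76486072).

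The Dgcr8 transcript is itself a Microprocessor substrate, because hairpins within it are cut by DROSHA and DGCR8. The hairpin of miR-1306 (mm9, chromosome 16, 18284332 to 18284410, minus strand) lies within a coding exon segment of Dgcr8 that runs from 18283790 to 18284509. Its mature strands are shown because they are a microRNA product encoded by a member of the pathway, from RefSeq on GRCm38.p6 (minus strand), with the seed in capitals. The record of this hairpin, 71 bases long, had 0 reads in all 8 libraries.
miR-1306-5p, chr16:18284288-18284310: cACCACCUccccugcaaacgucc
miR-1306-3p, chr16:18284248-18284268: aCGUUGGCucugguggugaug

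RefSeq promoter windows of 250 bases upstream of the start (GRCm38.p6) were found for 9 of the 10 genes (all but Ago2), in 10 windows because Ago1 has 2 starts. Their GC content was 60.0 to 85.6%, against a median of 52.4% over 32851 windows, and they held 15 to 46 CpG dinucleotides, against a median of 6. On both strands, the motifs searched were the NRF1 core, GCGCA followed by its reverse complement TGCGC (in 0.782% of all windows), the GC box GGGCGG (32.7%), the CCAAT box CCAAT (33.8%) and the E-box CACGTG (6.02%). The promoters of Xpo5, Ago3, Dgcr8 and Ago4 are shown since these genes differed between genotypes or clone series in at least 1 fit below. Capitals mark a match to any of the motifs.
Xpo5, chr17:46202561-46202810, plus strand: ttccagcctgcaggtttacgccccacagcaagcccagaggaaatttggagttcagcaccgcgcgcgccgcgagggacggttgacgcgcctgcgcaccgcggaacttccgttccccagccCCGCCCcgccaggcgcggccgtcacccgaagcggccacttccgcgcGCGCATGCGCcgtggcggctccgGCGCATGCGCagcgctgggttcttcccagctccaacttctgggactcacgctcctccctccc
Ago3, chr4:126429543-126429792, minus strand: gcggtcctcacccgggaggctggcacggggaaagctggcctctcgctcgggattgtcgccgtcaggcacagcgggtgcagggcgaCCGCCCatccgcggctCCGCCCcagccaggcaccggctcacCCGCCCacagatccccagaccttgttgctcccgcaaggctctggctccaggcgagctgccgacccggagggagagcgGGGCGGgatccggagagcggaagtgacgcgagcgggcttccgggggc
Dgcr8, chr16:18289169-18289418, minus strand: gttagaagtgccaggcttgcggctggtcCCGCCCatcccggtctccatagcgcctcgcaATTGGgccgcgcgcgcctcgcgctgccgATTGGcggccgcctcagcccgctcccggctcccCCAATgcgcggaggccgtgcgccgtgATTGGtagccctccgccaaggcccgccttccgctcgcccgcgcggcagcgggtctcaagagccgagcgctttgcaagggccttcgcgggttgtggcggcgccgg
Ago4, chr4:126533459-126533708, minus strand: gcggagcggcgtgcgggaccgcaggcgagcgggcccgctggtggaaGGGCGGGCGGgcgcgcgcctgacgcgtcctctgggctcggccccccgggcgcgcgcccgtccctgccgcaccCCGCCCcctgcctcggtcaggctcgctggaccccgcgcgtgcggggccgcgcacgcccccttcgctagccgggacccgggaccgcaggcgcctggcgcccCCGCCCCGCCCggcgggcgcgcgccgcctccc
The Xpo5 window holds 2 NRF1 cores and 1 GC box, and none of the other 8 genes searched has an NRF1 core. Ago3 has 4 GC boxes and Ago4 has 5, some of them overlapping, and neither has a CCAAT box. Dgcr8 has 4 CCAAT boxes and 1 GC box. The E-box is in none of the windows. A match is a run of letters and does not show that a factor binds there.

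All members were transcribed in all 8 clones. Per kilobase of record, which allows genes to be compared, the level over the 8 clones was 1626 ± 334 normalized counts for Xpo5, 1267 ± 129 for Tarbp2, 799 ± 187 for Dgcr8, 688 ± 128 for Ago2, 527 ± 60.8 for Dicer1 and 492 ± 34.3 for Ago1 (SD, n = 8). Prkra followed with 214 ± 47.1, Ago3 with 57.3 ± 15.2 and Ago4 with 13.7 ± 5.61. The exporter Xpo5 thus had the highest level, above 92.1% of tested records, while Ago4 was above 26.1%. Most neighbours in this order kept it in 8 of 8 clones, and Dgcr8 over Ago2, Ago2 over Dicer1 and Dicer1 over Ago1 held in 7 of 8 each. Dgcr8 was above Dicer1 and Ago1, and Ago2 above Ago1, in all 8 clones.

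Drosha is left out of that order. Its level of 15.8 ± 1.19 normalized counts per kilobase rests on a symbol with 2 records of 4580 and 4584 bases, which together received 29 to 160 reads per library, of which the record not used had 0 to 4. Genes with several records were counted low throughout the table: the median was 54.5 normalized counts per kilobase over 16850 symbols with 1 record, 4.11 over 2100 symbols with 2 records and 2.20 over 965 symbols with more. How reads that match more than 1 record were assigned is not stated, and its part in the low count of Drosha was not tested.

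**Figure D1:**
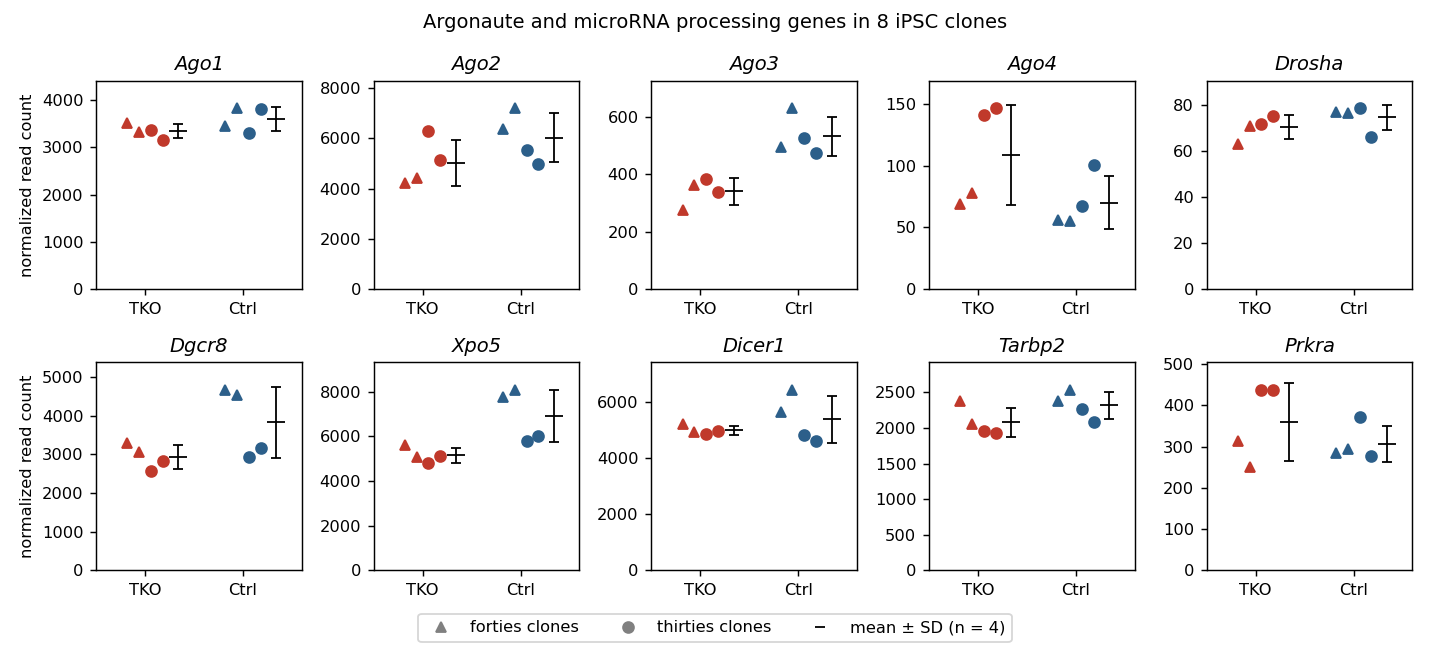
Normalized read count of each of the 10 genes (vertical axes, each from 0) in the 4 TKO and 4 Ctrl clones, with triangles for clones of the forties, circles for clones of the thirties and bars for mean ± SD (n = 4). For Ago3 and Xpo5 the TKO clones, at most 385 and 5599, lie below all Ctrl clones, at least 475 and 5791.

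The comparison of TKO with Ctrl clones addresses whether transcript levels differ in iPSCs without PIWI proteins, here for the related Argonaute pathway. Of the 10 genes, 0 passed edgeR's quasi-likelihood test with genotype as the single term (adjusted p under 0.05), against 0.24% of all tested records, and so 0 also differed by at least 2.5-fold (0.166% of records). At an unadjusted p under 0.05 there were 3, Ago3, Xpo5 and Dgcr8, all lower in TKO clones, against 14.8% of tested records in either direction. DESeq2 called 1, Ago3, among 513 of 16235 records, and limma-voom called 0 members among 41 records. With the clone series as a further term, edgeR called 2 genes lower in TKO clones, Ago3 and Xpo5, against 3.1% of records called lower (5.7% in either direction), and 0 higher. The 10 genes had a median log2 fold change of -0.13, and all tested records had one of -0.01. The 95% intervals of the fold changes with genotype alone lay within 0.502 and 2.58 times the Ctrl level for every member. On simulated counts that fit called 42 of 67 records changed 2.5-fold but 1 of 67 changed 1.5-fold. These records were drawn at random from all tested ones, without a difference between clone series. In such records a 1.5-fold difference would mostly go uncalled. Members that vary less, such as Ago1, were not simulated apart. Each library holds RNA of many cells, so that fewer cells of a type and less RNA per cell cannot be told apart.

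Xpo5 (NM_028198), the export receptor of precursor hairpins, had 5599, 5074, 4821 and 5102 normalized counts in TKO 47, 48, 35 and 37, against 7761, 8098, 5791 and 6006 in Ctrl 41, 43, 33 and 34. Every TKO clone was below every Ctrl clone, and the gap was wider in the forties, where both Ctrl clones were high. The means were 5149 ± 325 in TKO and 6914 ± 1184 in Ctrl clones (SD, n = 4 each). With genotype alone log2(TKO/Ctrl) was -0.43 (standard error 0.12, adjusted p = 0.213), with the clone series added it was -0.41 (standard error 0.09, adjusted p = 0.0311, edgeR), and the 95% interval ran from -0.60 to -0.22. Because the genotypes did not overlap, the exact two-sided permutation test of the 8 clones could only give its smallest p, 0.0286. This p is unadjusted, and Ago3 had the same. The call was lost when any 1 of TKO 35, TKO 37, TKO 47, Ctrl 41 and Ctrl 43 was left out (adjusted p from 0.0756 to 0.108), and over all alternatives the value ran from -0.46 to -0.35 (adjusted p from 0.00131 to 0.108).

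Ago3 (NM_153402), a low-level Argonaute, had 276, 364, 385 and 339.8 normalized counts in TKO 47, 48, 35 and 37, against 497, 632, 528 and 475 in Ctrl 41, 43, 33 and 34. Again the genotypes did not overlap, and the highest TKO clone was 385 against a lowest Ctrl clone of 475. Log2(TKO/Ctrl) was -0.64 with genotype alone (standard error 0.16, adjusted p = 0.171) and -0.64 with the clone series (standard error 0.15, adjusted p = 0.0382, edgeR), where its 95% interval ran from -0.97 to -0.31. Ago3 and Xpo5 were the 2 members without overlap between genotypes, a pattern found in 8.33% of tested records (4.23% with TKO lower). The call of Ago3 was lost when any 1 of TKO 35, TKO 37, TKO 47, Ctrl 33, Ctrl 41 and Ctrl 43 was left out (adjusted p from 0.0554 to 0.119) and in libraries thinned to the smallest total (-0.52, adjusted p = 0.0833). Over all alternatives its adjusted p ran from 0.00127 to 0.119.

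Ago2 (NM_153178), the Argonaute that in mammals can cut a fully matched target, had 4236, 4437, 6275 and 5151 normalized counts in TKO 47, 48, 35 and 37, against 6388, 7202, 5545 and 4961 in Ctrl 41, 43, 33 and 34. The genotypes were apart among the forties clones and overlapped among the thirties. Over all clones the means were 5025 ± 922 in TKO and 6024 ± 980.0 in Ctrl clones (SD, n = 4 each), and log2(TKO/Ctrl) was -0.26 (adjusted p = 0.439, standard error 0.15).

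Ago1 (NM_153403), which acts mostly without cutting, was the steadiest member. Its normalized counts were 3524, 3322, 3363 and 3163 in TKO 47, 48, 35 and 37, against 3465, 3834, 3310.1 and 3819 in Ctrl 41, 43, 33 and 34. The SD of its log2 counts over the 8 clones was 0.10, and the median over tested records was 0.35. Log2(TKO/Ctrl) was -0.11 (standard error 0.09, adjusted p = 0.568), with a 95% interval from -0.31 to 0.09.

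Ago4 (NM_153177), an Argonaute known in the mouse for its part in male meiosis, was the member that varied most, with an SD of 0.55 on the log2 scale. It had 69.1, 77.8, 141 and 147 normalized counts in TKO 47, 48, 35 and 37, against 56.1, 55.0, 67.7 and 101 in Ctrl 41, 43, 33 and 34. Within each genotype the clones of the thirties were higher than those of the forties, and the genotypes overlapped. The library with fewest reads of Ago4 had 25 and that with most had 304. Log2(TKO/Ctrl) was 0.65 (standard error 0.32, adjusted p = 0.381), and 0.58 once the clone series was a term (standard error 0.18, adjusted p = 0.0898).

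The Microprocessor genes differed in how well they were measured. Dgcr8 (NM_033324) had 3299, 3049, 2561 and 2818 normalized counts in TKO 47, 48, 35 and 37, against 4670.2, 4542, 2920.1 and 3161 in Ctrl 41, 43, 33 and 34. Both Ctrl clones of the forties stood above the other 6 clones, and each TKO clone was below the Ctrl clones of its own series. Log2(TKO/Ctrl) was -0.38 (standard error 0.17, adjusted p = 0.324), and -0.36 once the clone series was a term (standard error 0.09, adjusted p = 0.0534). That second value passed with DESeq2, with limma-voom, without a filter, with a filter of 10 reads in all libraries and without Ctrl 33. Drosha (NM_026799) had 63.1, 71.0, 71.9 and 75.3 normalized counts in TKO 47, 48, 35 and 37, against 76.9, 76.4, 78.6 and 66.2 in Ctrl 41, 43, 33 and 34. Its clones overlapped, and log2(TKO/Ctrl) was -0.08 (standard error 0.19, adjusted p = 0.864). Its sign turned in thinned libraries (0.052, adjusted p = 0.938), within a range of adjusted p from 0.739 to 0.957 over all alternatives.

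Dicer1 (NM_148948), the nuclease that trims the exported hairpin, had 5229, 4953, 4861 and 4966 normalized counts in TKO 47, 48, 35 and 37, against 5664, 6457, 4827 and 4609 in Ctrl 41, 43, 33 and 34. The TKO clones lay within the Ctrl range, with an SD of 158 in TKO against 844 in Ctrl clones, and log2(TKO/Ctrl) was -0.11 (standard error 0.11, adjusted p = 0.669). Of its binding partners, Tarbp2 (NM_009319) had 2379, 2051, 1964 and 1932 normalized counts in TKO 47, 48, 35 and 37, against 2384, 2538, 2265 and 2081 in Ctrl 41, 43, 33 and 34 (log2(TKO/Ctrl) -0.16, standard error 0.11, adjusted p = 0.498). Prkra (NM_011871), also known as an activator of the kinase PKR, had 314, 249.7, 438 and 437 in the same TKO clones, against 286, 294, 371 and 276 in the Ctrl clones (0.23, standard error 0.21, adjusted p = 0.611). Both TKO clones of the thirties were the highest for Prkra, while the genotypes overlapped for Tarbp2.

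**Figure D2:**
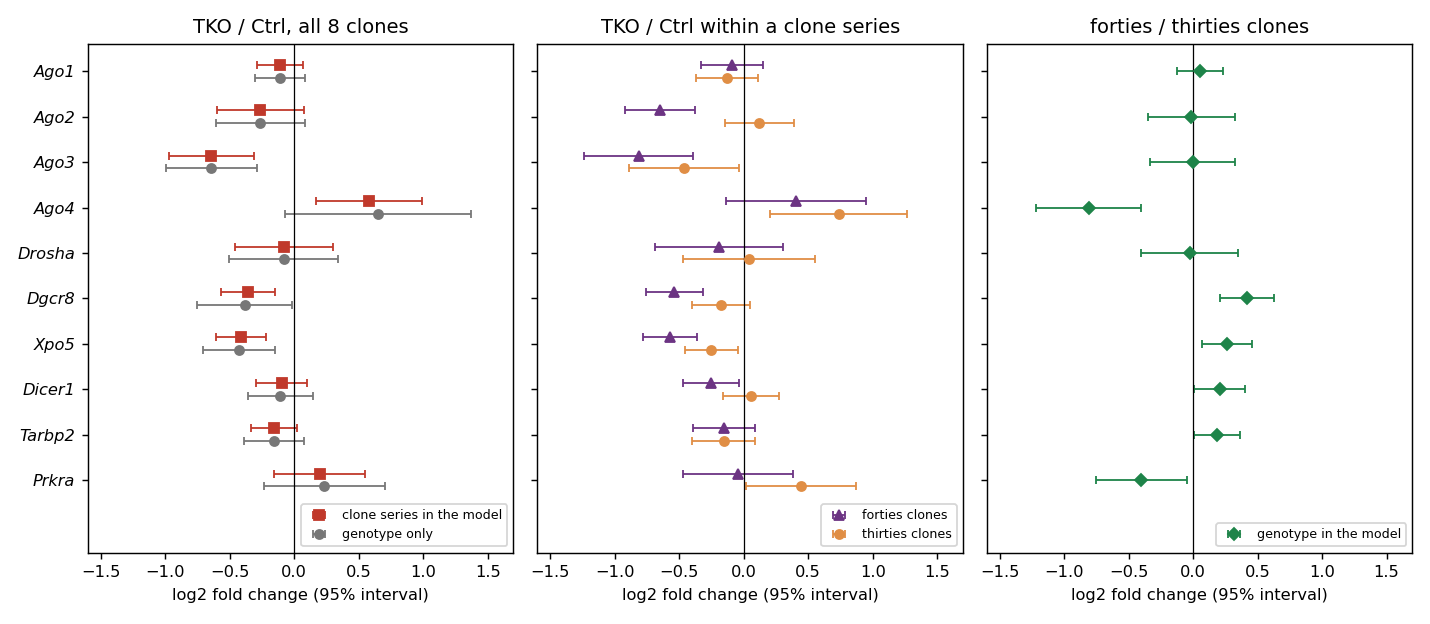
Log2 fold change of each gene with its 95% interval from edgeR (horizontal axes), for TKO over Ctrl in all clones with and without the clone series in the model, for TKO over Ctrl within the forties and within the thirties, and for forties over thirties clones. Ago3 and Xpo5 lie left of 0 in both panels of TKO over Ctrl, and Ago4 (-0.81) and Dgcr8 (0.42) lie apart from 0 between the clone series.

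Between the clone series, with genotype in the model, edgeR called 2 of the 10 genes, 1 higher and 1 lower in the forties, against 19.4% of all tested records (9.84% higher, 9.56% lower). DESeq2 called 3, among 3913 of 16235 records, and limma-voom 2, among 3665. Dgcr8 was higher in the forties, with 3890.0 ± 835 normalized counts in forties and 2865 ± 248 in thirties clones (SD, n = 4 each) and log2(forties/thirties) of 0.42 (standard error 0.09, adjusted p = 0.0149). Ago4 was lower in the forties, with 64.5 ± 10.9 in forties and 114 ± 37.0 in thirties clones, and log2(forties/thirties) of -0.81 (standard error 0.18, adjusted p = 0.0153). For neither gene were the series without overlap, a pattern that 16.1% of records showed and no member did. Xpo5 (0.27, adjusted p = 0.0574), Dicer1 (0.21, adjusted p = 0.125), Tarbp2 (0.18, adjusted p = 0.132) and Prkra (-0.40, adjusted p = 0.102) did not pass. Ago1, Ago2, Ago3 and Drosha had values between -0.03 and 0.05. The share of members called was near that of all records. The call of Dgcr8 was lost without TKO 35 (adjusted p = 0.0511, the highest of a range from 0.00151), and that of Ago4 without TKO 35, TKO 37 or TKO 47 (adjusted p from 0.0528 to 0.0656) and in thinned libraries (adjusted p = 0.0534), within a range from 0.000411 to 0.0656.

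Within the forties, edgeR called 3 members lower in TKO clones, against 1.17% of records called lower (1.98% in either direction). These were Xpo5 (log2 fold change -0.57, standard error 0.09, adjusted p = 0.0251), Dgcr8 (-0.54, standard error 0.10, adjusted p = 0.0374) and Ago2 (-0.65, standard error 0.12, adjusted p = 0.0384), with 2 clones of each genotype. Ago3 had the lowest value there, -0.82 (adjusted p = 0.0638). DESeq2 called 4, these 3 and Ago3, and limma-voom called the 3. The share of all records that DESeq2 and limma-voom called there is not given. Within the thirties 0 members were called by edgeR, by DESeq2 or by limma-voom, against 11.9% of records by edgeR, and at an unadjusted p under 0.05 there were 2 higher and 2 lower, against 29.8% of records. Ago3 was -0.47 (adjusted p = 0.137), Xpo5 -0.25 (adjusted p = 0.104), Dgcr8 -0.18 (adjusted p = 0.260), Ago2 0.12 (adjusted p = 0.536), Prkra 0.45 (adjusted p = 0.150) and Ago4 0.74 (adjusted p = 0.0720). Each call within the forties was lost when any 1 of TKO 35, TKO 37, TKO 48, Ctrl 41 and Ctrl 43 was left out, and those of Ago2 and Dgcr8 also without TKO 47 (highest adjusted p 0.291 for Ago2, 0.254 for Dgcr8 and 0.236 for Xpo5). That of Ago2 was lost in thinned libraries as well (adjusted p = 0.0509), and its adjusted p ran from 0.000446 to 0.291 over all alternatives.

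The difference of the TKO effect between the series was tested directly. By edgeR 0 members passed, against 1.3% of tested records, and at an unadjusted p under 0.05 there were 4, all with a lower value in the forties, against 18.7% of records. Ago2 came nearest, with a difference of -0.77 on the log2 scale (forties minus thirties, standard error 0.17, adjusted p = 0.0623) and a 95% interval from -1.15 to -0.39. Over its alternatives the adjusted p ran from 0.00540 to 0.281. DESeq2 called it (adjusted p = 0.00540), as did edgeR without a filter on low counts (adjusted p = 0.0166) or without Ctrl 33 (adjusted p = 0.0245), while limma-voom called 0 members. The differences were -0.36 for Dgcr8 (adjusted p = 0.209), -0.32 for Xpo5 (adjusted p = 0.225) and -0.31 for Dicer1 (adjusted p = 0.261), and 0.00 for Tarbp2 (adjusted p = 0.993). Fibroblast markers moved with genotype within the series too: of 11, 8 were lower in TKO clones of the thirties, whereas in the forties 0 passed, all 11 had a value above 0 (median 0.57) and 5 of these had an unadjusted p under 0.05. For 5 markers the TKO effect differed between series. Their part in the values of the members was not tested.

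Among the Argonautes, Ago2 and Ago1 made up nearly all transcripts. As a share of the sum of the 4 genes per kilobase, Ago2 was 53.6 ± 4.34% in TKO and 55.7 ± 4.04% in Ctrl clones (SD, n = 4 each). Ago1 was 41.1 ± 4.77% in TKO and 38.3 ± 3.78% in Ctrl clones. Ago3 was 3.86 ± 0.424% in TKO and 5.20 ± 0.358% in Ctrl clones, and Ago4 was 1.41 ± 0.449% in TKO and 0.817 ± 0.312% in Ctrl clones. Ago2 was the most abundant and Ago4 the least in every clone. The share of Ago3 was 3.37 to 4.41% in TKO and 4.79 to 5.59% in Ctrl clones, without overlap.

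**Figure D3:**
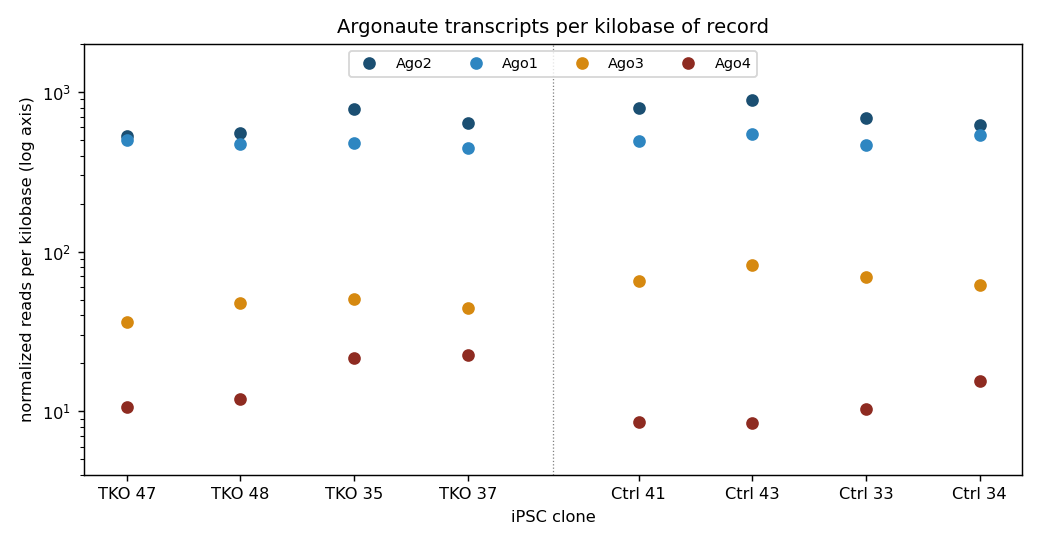
Normalized reads per kilobase of record (log axis) of the 4 Argonaute genes in each TKO and Ctrl clone. Ago2 and Ago1 lie between 448 and 897 in all clones, Ago3 between 36.2 and 50.5 in TKO and 62.2 and 82.7 in Ctrl clones, and Ago4 between 8.43 and 22.5.

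Ratios within a clone do not depend on the scaling of its library. The ratio of Xpo5 to Dicer1 per kilobase was 2.84, 2.72, 2.63 and 2.73 in TKO 47, 48, 35 and 37, against 3.64, 3.33, 3.19 and 3.46 in Ctrl 41, 43, 33 and 34. It varied little within a genotype and did not overlap between them. The ratio of Ago3 to Ago4 was 3.42, 4.00, 2.34 and 1.98 in the same TKO clones, against 7.58, 9.82, 6.67 and 4.03 in the Ctrl clones. It did not overlap either, but TKO 48 and Ctrl 34 nearly met, at 4.00 and 4.03. The ratio of Ago2 to Ago1 was 1.06, 1.17, 1.64 and 1.43 in TKO clones, against 1.62, 1.65, 1.47 and 1.14 in Ctrl clones, and overlapped. These ratios were chosen after the values of the genes had been seen and are given as descriptions. The ratio of Tarbp2 to Prkra ranged from 3.96 to 7.72 over the 8 clones. It overlapped between genotypes, as did the other ratios taken, of Dgcr8 to Dicer1, Dicer1 to Ago2 and Ago1 to Ago4. The ratios without overlap each hold Xpo5 or Ago3, which did not overlap by themselves.

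**Figure D4:**
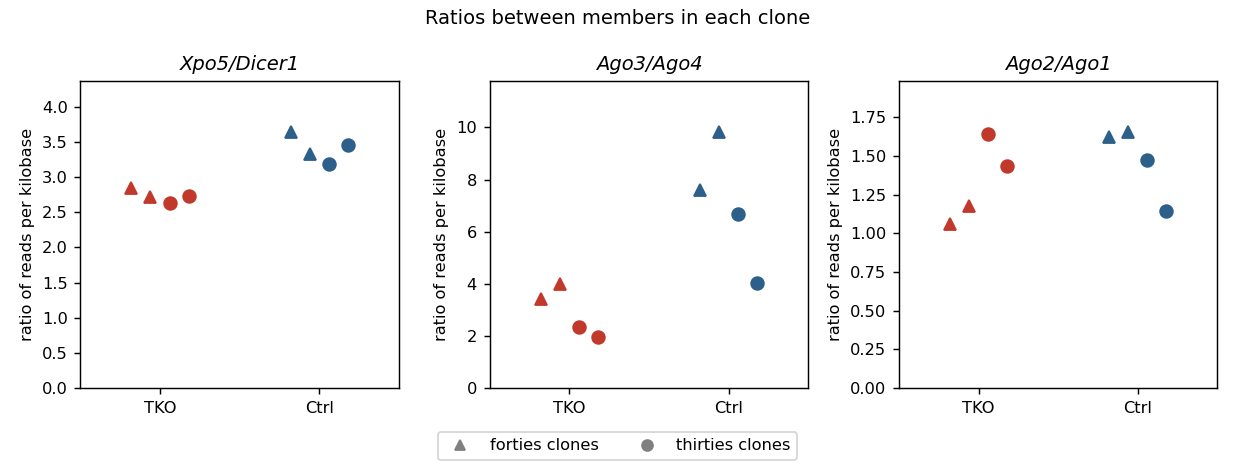
Ratios of reads per kilobase between pairs of members (vertical axes, each from 0) in the 4 TKO and 4 Ctrl clones, with triangles for the forties and circles for the thirties. Xpo5/Dicer1 lies at 2.63 to 2.84 in TKO and 3.19 to 3.64 in Ctrl clones, while Ago2/Ago1 overlaps.

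The pattern of Ago4, the most variable member, was compared with that of 9600 genes that averaged 100 or more normalized counts. By root-mean-square distance between centred log2 values over the 8 clones, the nearest were Sorl1, a sorting receptor gene (distance 0.08), Nup62cl (0.09) and Med12l, a paralog of a Mediator subunit gene (0.10), whereas the values of Ago4 itself spread by 0.52 around their mean. Sorl1 had 1309 and 1413 normalized counts in TKO 47 and 48, and 2726 and 2434 in TKO 35 and 37, against 962 and 1063 in Ctrl 41 and 43, and 1346 and 1899 in Ctrl 33 and 34. As for Ago4, both TKO clones of the thirties were the highest and both Ctrl clones of the forties the lowest. Likeness over 8 clones is a description.

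Other genes of the pathway were read from lists of known function. Of 18 cofactors that help or regulate the Microprocessor 17 were tested, and in the fit with the clone series 0 were higher and 2 lower in TKO clones, against 2.6% and 3.1% of all records. Ddx5, an RNA helicase of the Microprocessor, averaged 22658 ± 2774 normalized counts in TKO and 30329 ± 4187 in Ctrl clones (SD, n = 4 each), a log2(TKO/Ctrl) of -0.42 (adjusted p = 0.0274). Khsrp, which binds the loops of some hairpins, averaged 6114 ± 1361 in TKO and 8061 ± 606 in Ctrl clones (-0.42, adjusted p = 0.0399). Of 10 genes listed with the loading of Argonautes, which are chaperones, nuclease subunits and the GTPase gene Ran, 0 were called. By normalized count over the 8 clones the most expressed were the HSP90 gene Hsp90ab1, with 219295 ± 17076 in TKO and 201673 ± 7912 in Ctrl clones (0.12, adjusted p = 0.304), and the HSC70 gene Hspa8, with 183049 ± 4379 in TKO and 193526 ± 21095 in Ctrl clones (-0.08, adjusted p = 0.611).

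Downstream of the Argonautes, 34 silencing effectors were tested. In the fit with the clone series 1 was higher and 3 were lower in TKO clones, against 2.6% and 3.1% of all records. Some of those tested had few reads, such as Cnot2 (4.11 normalized counts in TKO, 9.01 in Ctrl clones) and Eif4enif1 (3.87 and 6.59). Cnot6, a deadenylase of the CCR4-NOT complex, averaged 1265 ± 135 in TKO and 2117 ± 457 in Ctrl clones (log2(TKO/Ctrl) -0.74, adjusted p = 0.0225). Tnrc6c, a GW182 scaffold that Argonautes bind, was also lower (-0.34, adjusted p = 0.0385), as was Ajuba, which encodes a LIM-domain protein found with Argonautes (-0.38, adjusted p = 0.0311), and Lsm14b, of the RNA-binding LSM14 family, was higher (0.31, adjusted p = 0.0487). Of 15 genes listed for microRNA tailing and decay, which include Trim71 and Lin28a, both linked to let-7, 14 were tested. In the fit with the clone series 0 were higher and 2 lower, against the same 2.6% and 3.1%. Trim71, the LIN-41 homolog and itself a let-7 target, had 2089, 2186, 1887 and 1802 normalized counts in TKO 47, 48, 35 and 37, against 3115, 3445, 2606 and 2546 in Ctrl 41, 43, 33 and 34. No clone of TKO reached the Ctrl range, log2(TKO/Ctrl) was -0.55 (standard error 0.08, adjusted p = 0.00799), and it was lower within the forties (-0.62, adjusted p = 0.0246) and within the thirties (-0.48, adjusted p = 0.0173). Lin28a, which blocks let-7 processing, averaged 5010.5 ± 1973 in TKO and 8347 ± 4475 in Ctrl clones (-0.66, adjusted p = 0.0498). With genotype alone edgeR called 0 genes of these 4 lists in either direction, and at an unadjusted p under 0.05 it found 1 higher and 3 lower among the effectors, 0 and 2 among the cofactors, 0 and 1 among the tailing and decay genes and 0 and 0 among the loading genes. The medians with genotype alone were 0.02 for the cofactors, 0.05 for the loading genes, -0.11 for the effectors and -0.07 for the tailing and decay genes, against -0.01 over all tested records.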

How the data were processed

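RNA of 8 iPSC clones (4 TKO, 4 Ctrl) was made into Illumina TruSeq libraries, read single-end and mapped by the authors to mm9 transcript sequences with BWA, listed as version 0.7.5a by the submitters. The deposited table holds whole-number read counts per RefSeq record, neither scaled nor filtered, with record lengths. Rules for strand and for reads matching several records are not given in the sources used here.

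Symbols came from a RefSeq table of GRCm38.p6 and named 26317 of 27052 records (735 unnamed); mm9 positions came from an NCBIM37 annotation. Piwil4 was named from the paper's text. No protein sequences were used here. Counts were compared with edgeR 4.0.16 (quasi-likelihood, R 4.3.3) after median-ratio scaling as in DESeq, on the 16235 records that had 5 or more reads in 4 or more libraries, with Benjamini-Hochberg adjustment over all of them and a threshold of 0.05. Fits had genotype alone, genotype with the clone series, or 4 groups of both; the fits within a clone series share the spread of all 8 clones. Standard errors came from the log2 fold change and F value. For single genes an exact two-sided permutation test used log2(normalized count + 1) and all 70 arrangements. The 95% intervals are for the log2 fold change between groups, with an error that comes from the spread between clones.

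Alternatives were DESeq2 1.42.0, limma-voom (limma 3.58.1), TMM scaling, dropping the filter or raising it to 10 reads in all libraries, counts summed per symbol, the clone series, leaving out each clone (a lone clone then being assumed to vary like the others) and, added after seeing the data, thinned libraries and all alternatives of single calls beyond TKO against Ctrl. The fits were tested on simulated counts. Named were all members, the Piwi genes and, per pathway list, up to 4 genes called with or without the clone series or else the 2 most expressed. The members and lists were chosen with earlier results of these data known, so they are no independent evidence.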

Additional observations from a re-analysis of the deposited data

How the results depend on the processing

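With genotype alone, the count of members called was 1 with DESeq2 (Ago3), 2 with the clone series in the model (Ago3 and Xpo5) and 0 under every other alternative. The count of all records called, 39 with genotype alone, was 513 with DESeq2, 926 with the clone series, 22 in libraries thinned to the smallest total, and 15 to 86 without 1 clone. With the clone series in the model, DESeq2 called Ago4 higher and Ago3, Dgcr8 and Xpo5 lower in TKO clones, among 2171 of 16235 records. Dgcr8 was also called with limma-voom (1126 records), without a filter (1176), with 10 reads in all libraries (1072) and without Ctrl 33 (921). In that model 0 members were called when any 1 of TKO 35, TKO 37, TKO 47, Ctrl 41 and Ctrl 43 was left out, where the records called were 91 to 238. Without TKO 48 it called Ago3 and Xpo5, among 1623 records, more than the 926 with all clones. Between clone series the count of 2 members was 1 in thinned libraries and 0 to 3 without 1 clone. The difference of the TKO effect had 1 member called without a filter and 1 with DESeq2 (Ago2 in both), and 0 to 1 without 1 clone. Without 1 clone, 0 to 1 members were called within the thirties and 0 to 4 within the forties. Over 18 values of single members and their alternatives, 238 kept direction and side of the threshold, 35 lost a call, 6 gained a call and 1 turned sign, Drosha in thinned libraries (0.052). Most of these 18 values were not called to begin with, so many that kept their side stayed uncalled. Only a value that was called could lose a call. Thinned libraries have fewer reads, and a fit without 1 clone has fewer samples. What moved the calls was not tested. Depth limits Ago4 and Drosha, with 25 and 29 reads in Ctrl 33. No paired analysis was possible because TKO and Ctrl clones share no number.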

Other observations

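Of 506 records of microRNA hairpins 12 passed the filter, and edgeR called 0 of them between TKO and Ctrl clones with genotype alone (1 higher at an unadjusted p under 0.05) and 0 with the clone series in the model. Libraries of this kind are made from messenger-length RNA, so mature microRNA levels were not measured. Between the clone series Mir703 was higher in the forties (log2 fold change 0.62, adjusted p = 0.0257). Of the microRNA host transcripts, Mir17hg, Mirg and Mir100hg passed the test between clone series, as did 19.4% of all tested records. They were named after their values were seen. Mir22hg did not pass (0.23, adjusted p = 0.456). Mir100hg was higher in the forties (log2 fold change 1.66, adjusted p = 0.00341, edgeR). Within the thirties it was lower in TKO clones (-1.39, adjusted p = 0.00616), but not within the forties (-0.08, adjusted p = 0.844). Mir17hg, the host of the miR-17 cluster, had 1079.8 and 1087 normalized counts in TKO 47 and 48 and 1373 and 1261 in Ctrl 41 and 43, against 439 and 431 in TKO 35 and 37 and 528.2 and 528.5 in Ctrl 33 and 34. All forties clones were above all thirties clones, with a log2 fold change of 1.32 (adjusted p = 7.86e-05, edgeR), while log2(TKO/Ctrl) with the clone series as a term was -0.28 (adjusted p = 0.0818). Mirg, of the Dlk1-Dio3 region, differed likewise, with 386 ± 14.6 normalized counts in forties and 98.0 ± 24.6 in thirties clones (SD, n = 4 each, log2 fold change 2.02, adjusted p = 0.000497).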
